A study of Mus musculus with 8 samples.

Results

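Antioxidant genes and targets of the transcription factor NRF2 were examined in mouse hearts at postnatal day 4. The set holds 10 genes, chosen by symbol, out of 54532 genes in the deposited table: Nfe2l2, Nqo1, Hmox1, Gclc, Gclm, Txnrd1, Prdx3, Sod1, Sod2 and Cat. All 10 were found, and all 10 passed the filter on low values (a mean of at least 1 FPKM, fragments per kilobase of gene length, scaled to library depth, over the 8 libraries). The cHET hearts (4 libraries) were Mrps5 fl/+; Myh6-Cre, so that, from late embryonic stages, Cre under the promoter of the cardiomyocyte gene Myh6 removes 1 allele of Mrps5, the gene of a protein of the small mitochondrial ribosomal subunit. The control hearts (4 libraries) came from littermates that were Mrps5 fl/+ without Cre and received no treatment. Every animal thus carries the floxed allele, cells that do not use the Myh6 promoter keep both alleles, and with no group that carries Cre alone, effects of Cre and of the lost allele cannot be told apart. The series calls the 4 libraries per group biological replicates.

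The libraries held 15490622 to 19234777 reads assigned to genes. All 14 cardiomyocyte markers were detected, with a summed level of 18750 to 22920 FPKM in cHET and 19820 to 22630 FPKM in control libraries. Mrps5 itself stood at 7.16 ± 0.365 FPKM in cHET and 8.27 ± 3.05 FPKM in control (SD, n = 4; exact permutation test, two-sided, p = 0.486). The libraries labelled control 2 and control 4, at 6.27 and 5.15 FPKM, lay below every library labelled cHET, so its level did not separate the labels, and every direction given here rests on the labels. A gene level over mixed cells, with reads from parts of the gene outside a deletion, is a weak check of the loss. The brown fat gene Ucp1 reached 6.56 FPKM in cHET 2 and at most 1.62 FPKM in the other cHET libraries, against 17.8 and 16.7 FPKM in control 1 and control 2 and at most 0.149 FPKM in the other controls. For each gene of the set, the log2 fold change is therefore also given without control 1 and control 2. For the genes of the wider redox lists it is given with all libraries only.

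NRF2, the product of Nfe2l2, is a transcription factor that the adaptor KEAP1 holds in the cytoplasm and marks for degradation. Oxidants and electrophiles modify KEAP1, NRF2 then accumulates in the nucleus with a small MAF partner, and it binds antioxidant response elements of genes for glutathione synthesis, thioredoxin reduction, quinone reduction and haem breakdown. In heart muscle, whose respiratory chain releases superoxide, superoxide dismutases turn superoxide into hydrogen peroxide, and catalase and peroxiredoxins remove the peroxide. NRF2 is regulated chiefly through the stability of its protein, which RNA levels do not measure.

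The core of the antioxidant response element, TGACNNNGC, was searched on both strands of RefSeq promoter windows (GRCm38.p6, 250 bases before to 50 after each annotated start), and the sites found are shown because this element defines NRF2 targets. The window table held 8 of the 10 genes in 10 windows, 3 of them for Txnrd1, while Hmox1 and Gclc had no entry. The core was present in 4 of the 10 windows, against 12.4% of all 32851 windows. By gene this was 4 of 8, against 14% of 27025 genes with a window. The window of Nqo1 did not hold the core. The genes were chosen as antioxidant genes and NRF2 targets, so these shares are a description and not a test. No printed stretch holds the AP-1 motif TGANTCA, which can overlap the element. The sites are printed 5′ to 3′ on the strand that carries the core, with the core in capitals:
Nfe2l2: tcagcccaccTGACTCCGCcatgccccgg
Gclm: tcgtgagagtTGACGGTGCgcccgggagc
Txnrd1: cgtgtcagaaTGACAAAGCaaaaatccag
Sod1: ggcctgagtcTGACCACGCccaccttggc
The stretch of Nfe2l2 lies at chr2:75704885-75704913 on the minus strand, which is the strand of the gene, with the core starting at position -240 from the start site. The stretch of Gclm lies at chr3:122245413-122245441 (position -134), that of Txnrd1 at chr10:82859104-82859132 (position -92 of 1 of its 3 starts) and that of Sod1 at chr16:90220696-90220724 (position -56), each on the minus strand, opposite to the gene. A match describes letters only, and binding was not measured.

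The genes fell into a high and a low tier of expression. Averaged over the 8 libraries and per kilobase of the table's gene length, Prdx3 (104 FPKM), Sod1 (81.6 FPKM), Cat (50.05 FPKM) and Sod2 (39.4 FPKM), all enzymes that act directly on superoxide or peroxide, were the most abundant. They lay above 90.7 to 96.3% of the 13029 genes tested. The regulator Nfe2l2 was next, at 16.6 FPKM. The inducible enzymes followed, with Txnrd1 at 9.97, Hmox1 at 8.81, Nqo1 at 8.03, Gclm at 5.49 and Gclc at 5.07 FPKM. Neighbours in this order had separate ranges over the 8 libraries at only 3 of 9 steps: Sod1 above Cat, Sod2 above Nfe2l2, and Nfe2l2 above Txnrd1. The other neighbours overlapped, although Nqo1 lay above Gclm within each of the 8 libraries and Prdx3 above Sod1 within 7.

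The place of Sod1 in this order depends on the length it is divided by. The table gives Sod1 3970 bases, which is the length of a transcript with a retained intron in GENCODE M21, whereas its coding transcript in the consensus coding sequence (CCDS) set has 641 bases. If all its reads were set against the coding transcript, its mean would be 506 FPKM and the highest of the 10, against 104 FPKM for Prdx3, whose lengths are equal. On the same basis, a choice made after the data were seen, Sod2 would stand at 67.4 FPKM, Nfe2l2 at 25.4 FPKM and Txnrd1 at 20.0 FPKM, and the order of the other genes would change only in that Sod2 passes Cat. The ratio of FPKM of 1 gene between libraries does not depend on the length, although the 1 FPKM added before taking logs weighs more on a gene with lower values.

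**Figure D1:**
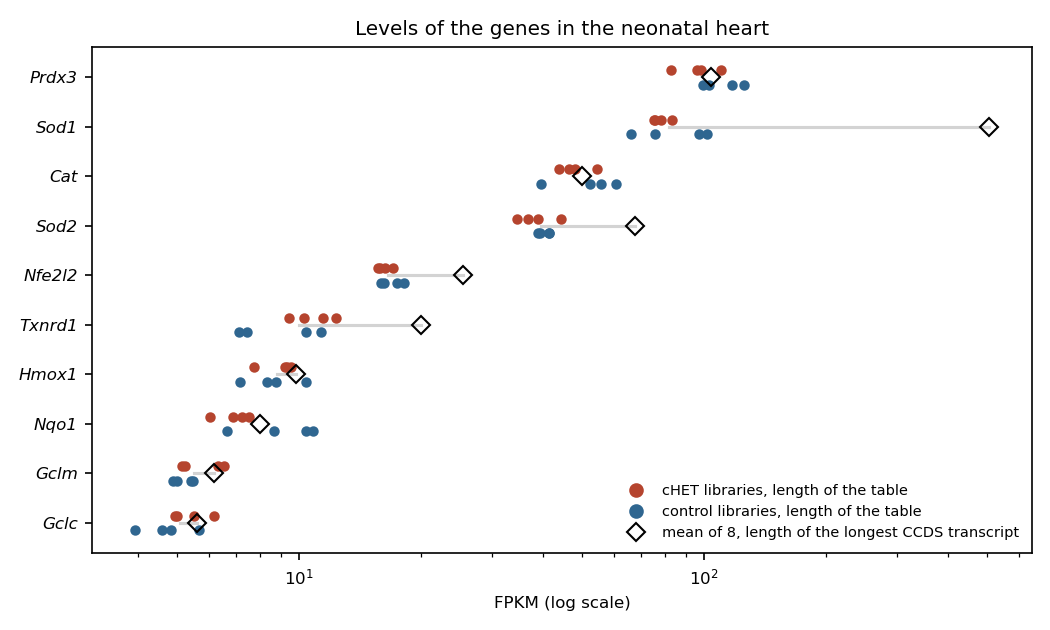
FPKM on a log scale for each gene, with the 4 cHET libraries (red) above the 4 control libraries (blue), and the mean of all 8 per length of the longest CCDS transcript (open diamonds). Sod1 moves most with the length used, to 506 from 81.6 FPKM, and Prdx3, Cat and Nqo1 not at all.

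None of the 10 genes passed the test between cHET and control. The limma test on log2(FPKM + 1), adjusted by Benjamini-Hochberg over 13029 genes, called 0 of 10 members, against 0.023% of all genes (3 genes, each higher in cHET: Ndnf, Syt7 and Them6). At an unadjusted p under 0.05 there was 1 member of 10, Nqo1, against 8.95% of all genes. With 1 library left out at a time, that number was 0 to 2 of 10, against 5.07 to 15.3% of all genes. It was 2 without control 4 (15.3% of all genes), 1 without cHET 2 (8.4%) and 0 without any other single library. It was 2 with the replicate number as a block (13.4%), and 0 under TPM scaling (7.28%) and with sex as a covariate (7.19%). Without control 1 and control 2 it was 1 (8.52%), but that member was Cat (limma, adjusted p = 0.554) and not Nqo1 (adjusted p = 0.827). A voom fit on reads rebuilt from the FPKM values also called 0 members after adjustment. The groups overlapped for all 10 members, while they did not overlap for 4.74% of all genes. Of the log2 fold changes (cHET over control), 4 lay above 0 and 6 below, with a median of -0.06, beside a median of 0.0086 over all genes tested. The summed level of the 10 genes was 316 ± 12.3 FPKM in cHET and 342 ± 21.3 FPKM in control (SD, n = 4; exact permutation test, p = 0.0857), and their share of all FPKM was 0.0827 ± 0.00419% in cHET and 0.0837 ± 0.00639% in control (exact permutation test, p = 0.857).

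**Figure D2:**
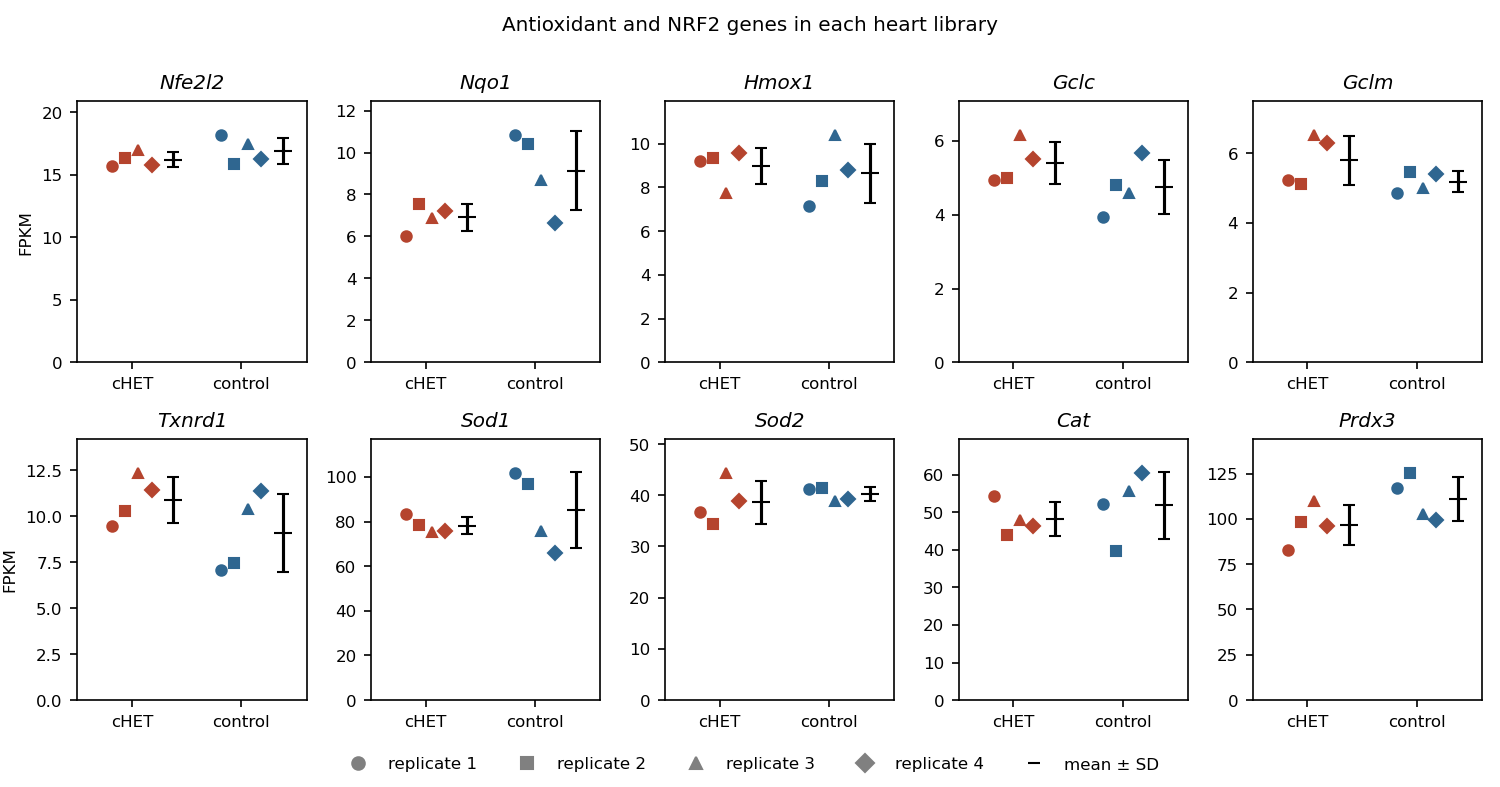
FPKM of each gene in each library, cHET left of control, with a marker shape per replicate number and the mean ± SD of 4 libraries beside the points. The groups overlap for all 10 genes, and control 1 and control 2 lie at the high end for Nqo1 and Sod1 and at the low end for Txnrd1.

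Nfe2l2 (ENSMUSG00000015839, chromosome 2, 75675513 to 75704641, minus strand, GRCm38) had nearly equal levels in both groups. It stood at 15.7, 16.3, 17.0 and 15.8 FPKM in cHET 1 to 4, against 18.2, 15.9, 17.4 and 16.2 FPKM in control 1 to 4. The libraries interleaved, and the highest was only 1.16 times the lowest. The coefficient of variation over the 8 libraries, 5.33%, was the lowest of the 10 genes and close to the 3.20% that counting error alone gives at its fewest reads, 975. On the log2 scale the difference was -0.06 (SE 0.0748, limma with an adjusted p of 0.798), with a 95% interval of -0.23 to 0.11, which is 0.85 to 1.08 times the control level of FPKM + 1. Without control 1 and control 2 it was -0.05. A small RNA gene, Gm24996, overlaps Nfe2l2 on the same strand.

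Nqo1 (ENSMUSG00000003849, chromosome 8, 107388225 to 107403206), the quinone reductase that is the usual reporter of NRF2 activity, had the lowest log2 fold change of the set. It stood at 6.03, 7.53, 6.86 and 7.23 FPKM in cHET 1 to 4, against 10.8, 10.4, 8.69 and 6.64 FPKM in control 1 to 4. Control 1, 2 and 3 lay above every cHET library, while control 4 lay inside the cHET range. Its mean was 6.91 ± 0.649 FPKM in cHET and 9.14 ± 1.9 FPKM in control (SD, n = 4), with all 4 cHET libraries below the control mean. In the limma fit the log2 fold change was -0.34 (SE 0.14; 95% interval -0.66 to -0.03), with an unadjusted p of 0.0364 and an adjusted p of 0.535. Without control 1 and control 2 it was -0.13 (limma, adjusted p = 0.827). Nqo1 had 160 to 261 reads per library, the fewest of the set at its minimum, so that counting error alone gives up to 7.91%, against a variation of 22.1% over the 8 libraries, the widest of the set.

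Markers of other cells also varied between these libraries. The 7 epicardium markers, the list with the smallest p, summed to 50.5 ± 8.21 FPKM in cHET and 69.8 ± 18.0 FPKM in control (SD, n = 4; exact permutation test, p = 0.0571). The groups overlapped, with cHET 2 at 59.35 and control 3 at 58.79 FPKM, and control 2 was highest, at 96.6 FPKM. The most abundant of these markers, Aldh1a2, had the opposite direction, with means of 20.1 FPKM in cHET and 17.8 FPKM in control. The 4 atrial myocyte markers had sums of 3427, 5277, 240.5 and 3680 FPKM in cHET 1 to 4, against 3500, 4253, 5117 and 1459 FPKM in control 1 to 4, low in cHET 3 and control 4. The summed level of 18 macrophage and leukocyte markers was 103, 138, 92.0 and 103 FPKM in cHET 1 to 4, against 173, 283, 121 and 115 FPKM in control 1 to 4 (exact permutation test, p = 0.143). Adjusted over 9 marker lists, 0.429 was the lowest p. Of the 18 markers, 15 had a mean of at least 1 FPKM, and none was at 0 in every library. The 8 brown fat markers summed to 29.0 to 42.6 FPKM in cHET and 24.7 to 62.0 FPKM in control. Of these 8, only 3 had a mean of at least 1 FPKM, and 6 were at 0 in some library. Most of the sum came from Cidea, with means of 30.31 FPKM in cHET and 30.27 FPKM in control. In cHET 3 the sum was 29.02 FPKM, although the markers Ucp1 and Adipoq were both at 0 there. The part of these cells in the level of Nqo1 was not tested. In bulk heart tissue, fewer cells of a type and less RNA per cell cannot be told apart.

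Hmox1 (ENSMUSG00000005413, chromosome 8, 75093621 to 75100589), which encodes the inducible haem oxygenase, had 9.22, 9.34, 7.75 and 9.57 FPKM in cHET 1 to 4, against 7.13, 8.31, 10.4 and 8.79 FPKM in control 1 to 4. The highest and the lowest library were both controls, control 3 and control 1. Its log2 fold change was 0.05 (95% interval -0.20 to 0.31; limma, adjusted p = 0.887), and it was -0.09 without control 1 and control 2.

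The subunits of glutamate-cysteine ligase, the rate-limiting enzyme of glutathione synthesis, both had log2 fold changes above 0, within their error. Gclc (ENSMUSG00000032350, chromosome 9, 77754535 to 77794485), the catalytic subunit, stood at 4.94, 4.98, 6.15 and 5.50 FPKM in cHET 1 to 4, against 3.93, 4.82, 4.58 and 5.67 FPKM in control 1 to 4. Each cHET library lay above the control mean of 4.75 FPKM, and control 4 above all cHET libraries but cHET 3. Gclm (ENSMUSG00000028124, chromosome 3, 122245557 to 122270732), the modifier subunit, whose promoter window holds an element core, stood at 5.24, 5.13, 6.51 and 6.30 FPKM in cHET 1 to 4, against 4.87, 5.47, 5.00 and 5.40 FPKM in control 1 to 4. Here cHET 3 and cHET 4 lay above every other library, and cHET 1 and cHET 2 inside the control range. The log2 fold changes were 0.16 for Gclc (95% interval -0.09 to 0.40; limma, adjusted p = 0.674) and 0.13 for Gclm (-0.08 to 0.34; adjusted p = 0.675). Both had a value above 0 in each of 24 alternative settings, some of which cannot change a log2 fold change. For Gclc it was 0.09 without control 1, its lowest library, and 0.06 without control 1 and control 2 (limma, adjusted p = 0.969 and 0.922), while Gclm had 0.13 without both. The ratio of Gclc to Gclm, per kilobase of the table's lengths, was 0.933 ± 0.0417 in cHET and 0.914 ± 0.102 in control (SD, n = 4). Gclm overlaps Gm6061 on its own strand and Gm17494 on the other.

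Txnrd1 (ENSMUSG00000020250, chromosome 10, 82833951 to 82897712), the cytosolic thioredoxin reductase and a selenoprotein, had the highest log2 fold change of the set. It stood at 9.46, 10.3, 12.3 and 11.4 FPKM in cHET 1 to 4, against 7.10, 7.44, 10.4 and 11.3 FPKM in control 1 to 4. Control 1 and control 2 lay below all other libraries, and control 3 and control 4 inside the cHET range. Its log2 fold change was 0.26 (SE 0.151; 95% interval -0.08 to 0.60; limma, adjusted p = 0.643), and without control 1 and control 2 it was -0.0031 (adjusted p = 0.996). Txnrd1 overlaps Eid3 on its own strand and Gm38560 and Gm47073 on the other, and the sources used here do not give the strand setting of the counting.

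Prdx3 (ENSMUSG00000024997, chromosome 19, 60864051 to 60874556), the peroxiredoxin of the mitochondrial matrix, stood at 83.0, 98.3, 110 and 95.8 FPKM in cHET 1 to 4, against 117, 125, 103 and 99.1 FPKM in control 1 to 4. All 4 cHET libraries lay below the control mean of 111 FPKM, and only cHET 3 reached the control range. The log2 fold change was -0.20 (SE 0.122; 95% interval -0.47 to 0.08; limma, adjusted p = 0.65). It stayed below 0 in each of 24 alternative settings, between -0.26 and -0.07, the last without control 1 and control 2. Some of these settings cannot change a log2 fold change.

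The superoxide dismutases differ in place and metal: SOD1 is the copper and zinc enzyme of the cytosol, and SOD2 the manganese enzyme of the mitochondrial matrix. Sod1 (ENSMUSG00000022982, chromosome 16, 90220754 to 90226329) stood at 83.4, 78.4, 75.1 and 75.7 FPKM in cHET 1 to 4, against 102, 97.0, 75.6 and 66.1 FPKM in control 1 to 4. The control libraries thus enclosed the cHET range on both sides, with a spread of 85.1 ± 17.0 FPKM in control beside 78.2 ± 3.77 FPKM in cHET (SD, n = 4). Its log2 fold change was -0.10 (95% interval -0.42 to 0.22; limma, adjusted p = 0.817) with all libraries and 0.14 (adjusted p = 0.733) without control 1 and control 2, so that no direction can be given. Sod1 overlaps Scaf4 on the other strand.

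Sod2 (ENSMUSG00000006818, chromosome 17, 13006846 to 13040063) stood at 36.8, 34.4, 44.4 and 38.9 FPKM in cHET 1 to 4, against 41.3, 41.5, 38.9 and 39.4 FPKM in control 1 to 4. Here the spread lay in the other group: the highest and the lowest library were cHET 3 and cHET 2, with 38.6 ± 4.23 FPKM in cHET and 40.3 ± 1.32 FPKM in control (SD, n = 4). The log2 fold change was -0.06 (95% interval -0.28 to 0.15; limma, adjusted p = 0.826), and -0.02 without control 1 and control 2. Per kilobase of the table's lengths, and so subject to the length taken for Sod1, the ratio of Sod1 to Sod2 was 2.05 ± 0.280 in cHET and 2.11 ± 0.361 in control.

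Cat (ENSMUSG00000027187, chromosome 2, 103453849 to 103485160), the catalase of peroxisomes, stood at 54.4, 43.8, 48.1 and 46.3 FPKM in cHET 1 to 4, against 52.2, 39.6, 55.6 and 60.5 FPKM in control 1 to 4. The lowest and the highest library were both controls, control 2 and control 4. Between the groups the log2 fold change was -0.10 (SE 0.137; 95% interval -0.40 to 0.21; limma, adjusted p = 0.819), and -0.27 without control 1 and control 2 (adjusted p = 0.554).

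**Figure D3:**
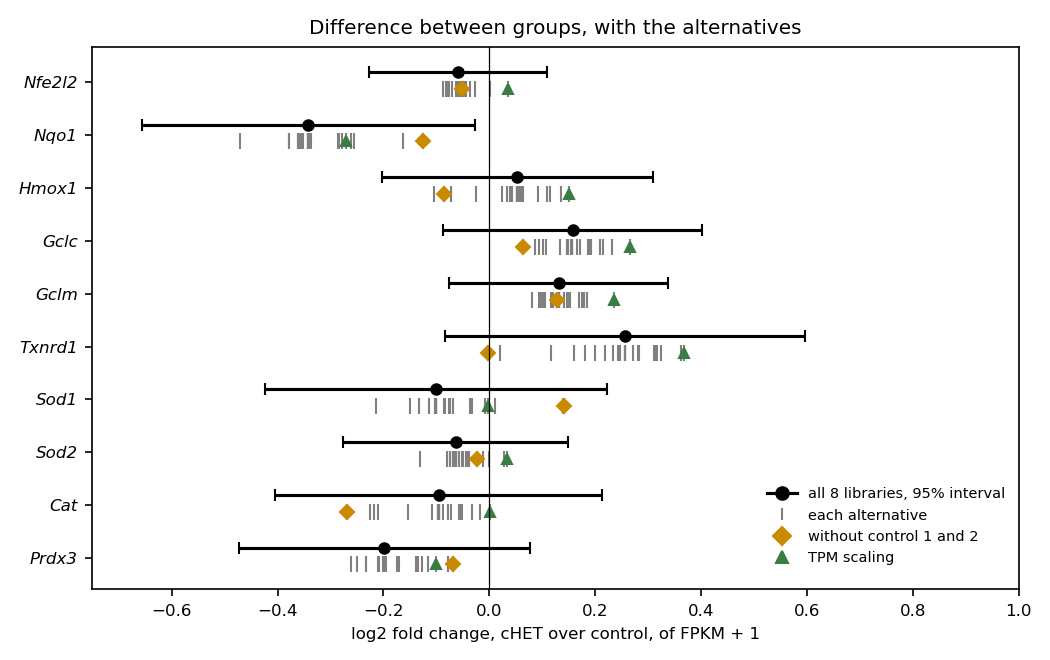
Log2 fold change of FPKM + 1, cHET over control, with all 8 libraries and its 95% interval (black), in each of 24 alternatives (grey ticks), without control 1 and 2 (diamonds) and under TPM scaling (triangles). The interval of Nqo1 alone excludes 0, at -0.66 to -0.03, and the diamonds of Txnrd1, Sod1 and Hmox1 lie on the other side of 0 from the value with all libraries.

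Among the controls, the genes split between control 1 and 2 and control 3 and 4 in opposite directions. This split was noticed in the data, so it is described without a test. Sod1 averaged 99.4 FPKM in control 1 and 2 and 70.9 FPKM in control 3 and 4, Nqo1 10.6 and 7.67 FPKM, and Prdx3 121 and 101.1 FPKM. Txnrd1 averaged 7.27 FPKM in control 1 and 2 and 10.9 FPKM in control 3 and 4, Cat 45.9 and 58.0 FPKM, and Hmox1 7.72 and 9.59 FPKM. Gclc averaged 4.37 and 5.13 FPKM, but its pairs interleaved, with control 2 (4.82 FPKM) above control 3 (4.58 FPKM). Nfe2l2 (17.0 and 16.8 FPKM), Gclm (5.171 and 5.196 FPKM) and Sod2 (41.4 and 39.1 FPKM) hardly differed between these pairs. The total of all FPKM was also highest in control 1 and control 2, at 450260 and 467220, beside 353290 to 392050 in the other 6 libraries. Under TPM scaling, which sets these totals equal, the median of all genes was 0.10 and the log2 fold changes of Nfe2l2, Sod2 and Cat were 0.04, 0.03 and 0.0017, each below that median. The read total that the deposited FPKM are scaled by was not the library's own total of reads assigned to genes. It was 0.968 times that total in control 1 and control 2, against 1.02 and 1.03 times in control 3 and control 4. In cHET libraries it was 0.994 to 1.04 times. The part of brown fat cells or of the scaling in this split was not tested.

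**Figure D4:**
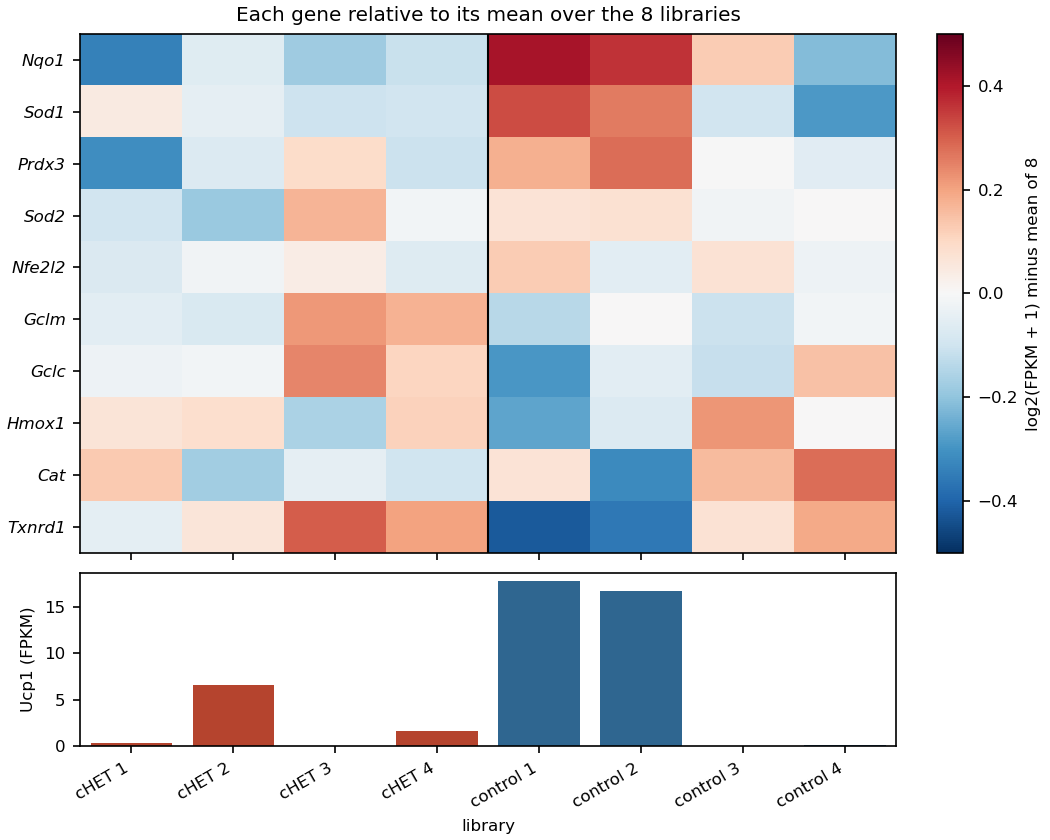
Upper panel, log2(FPKM + 1) of each gene minus its mean over the 8 libraries, cHET left of control; lower panel, Ucp1 in FPKM. In control 1 and 2, the libraries with Ucp1 at 17.8 and 16.7 FPKM, Nqo1 lies 0.41 and 0.36 above its mean and Txnrd1 lies at -0.42 and -0.36.

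The libraries also differ in sex, which Xist and the Y-linked Ddx3y showed as male for cHET 1, control 1 and control 3 and female for the other 5. With sex as a covariate, 0 of 10 members and 0.015% of all genes were called.

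The wider redox network was described through 7 lists with 143 genes, of which 116 were tested. Of these 116, 0 were called higher and 0 lower, and the groups did not overlap for 5, against 4.74% of all genes. Log2 fold changes lay above 0 for 44 and below 0 for 72, against 6784 and 6245 of all genes tested. The median was -0.03, against 0.0086 for all genes. Under TPM scaling the median of all genes was 0.10, and the lists were not summarised under that scaling. Counts above and below 0, here and per list, hold only for FPKM as deposited and with all libraries included. The lists and their named genes were not summarised without control 1 and control 2, the libraries with the highest Ucp1.

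The list named for NRF2 control, which also holds the related genes Nfe2l1, Nfe2l3 and Nfe2, had log2 fold changes close to 0. Of 16 tested, 10 lay above 0 and 6 below, with a median of 0.04 and a range of -0.14 to 0.18. Mafk, a small MAF partner of NRF2, stood at 8.01 ± 0.680 FPKM in cHET and 7.01 ± 1.14 FPKM in control, and Cul3, the scaffold of the ligase that ubiquitinates NRF2, at 20.6 ± 1.55 and 18.6 ± 1.73 FPKM (SD, n = 4; limma, adjusted p = 0.655 and 0.659). Sqstm1, the autophagy receptor that binds KEAP1, was the most abundant, at 60.5 ± 3.55 FPKM in cHET and 61.0 ± 7.2 FPKM in control.

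Of 16 tested detoxification genes, 8 lay above and 8 below 0, with a median of -0.0096. Ptgr1, a reductase of lipid aldehydes and prostaglandins, stood at 8.48, 8.22, 7.95 and 8.58 FPKM in cHET 1 to 4, against 6.06, 7.15, 6.46 and 5.66 FPKM in control 1 to 4. The groups did not overlap, with control 2 the highest and control 4 the lowest of the controls. Its log2 fold change of 0.35 had the smallest p of all 116 genes and did not pass over all genes (limma, adjusted p = 0.337). The exporter of glutathione conjugates Abcc1 likewise did not overlap, with 1.46 to 1.82 FPKM in cHET and 1.00 to 1.43 FPKM in control (log2 fold change 0.27; limma, adjusted p = 0.486). Cbr1, a carbonyl reductase named after its values were seen, was the other gene without overlap, with 13.3 to 14.3 FPKM in cHET and 14.4 to 17.3 FPKM in control (-0.21; adjusted p = 0.506). Akr1a1, an aldehyde reductase, had the highest level, at 111 ± 7.05 FPKM in cHET and 123 ± 8.28 FPKM in control.

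Of 29 tested glutathione genes, 7 lay above and 22 below 0, with a median of -0.10. Mgst1, a membrane glutathione transferase, stood at 6.42, 6.30, 4.05 and 5.41 FPKM in cHET 1 to 4, against 12.1, 12.9, 9.54 and 5.91 FPKM in control 1 to 4 (log2 fold change -0.73; limma, adjusted p = 0.414). As for Nqo1, control 1, 2 and 3 lay above every cHET library and control 4 inside the cHET range. Ggt5, a glutamyl transferase that cleaves glutathione conjugates, did not overlap, with 1.97 to 2.78 FPKM in cHET and 2.93 to 3.26 FPKM in control (adjusted p = 0.433). The secreted peroxidase gene Gpx3 was the most abundant and varied widely within both groups, from 80.0 to 378 FPKM in cHET and from 123 to 387 FPKM in control. It was lowest in cHET 3 and control 4, the libraries with the lowest atrial myocyte sums given above, 240.5 and 1459 FPKM. The part of atrial tissue in the level of Gpx3 was not tested.

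Of 19 tested thioredoxin and peroxiredoxin genes, 7 lay above and 12 below 0, with a median of -0.03. The methionine sulfoxide reductases had values on both sides, with Msra at 8.24 ± 0.598 FPKM in cHET and 7.01 ± 0.591 FPKM in control, and Msrb2 at 22.9 ± 1.56 and 27.7 ± 3.92 FPKM (SD, n = 4; limma, adjusted p = 0.535 and 0.547). Txnip, the inhibitor of thioredoxin, stood at 175 ± 29.7 FPKM in cHET and 238 ± 66.8 FPKM in control (adjusted p = 0.614).

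Of 8 tested genes of superoxide handling, 2 lay above and 6 below 0, with a median of -0.21. In the limma fit 3 had an unadjusted p under 0.05, against 8.95% of all genes. Over all 7 lists together this held for 13 of 116 genes. The lowest was Ucp3, the uncoupling protein of muscle mitochondria, with 13.3, 8.69, 7.49 and 6.48 FPKM in cHET 1 to 4, against 36.3, 12.4, 17.5 and 21.3 FPKM in control 1 to 4 (log2 fold change -1.14; limma, adjusted p = 0.357). Only cHET 1 reached the control range. Ccs, the chaperone that delivers copper to SOD1, was named after its values were seen, as the one gene of this list whose groups did not overlap. It stood at 29.5, 28.7, 25.0 and 27.4 FPKM in cHET 1 to 4, against 37.4, 31.2, 34.8 and 30.15 FPKM in control 1 to 4 (log2 fold change -0.26; limma, adjusted p = 0.486). Ncf4, a subunit of the phagocyte oxidase, stood at 0.895 ± 0.229 FPKM in cHET and 1.55 ± 0.470 FPKM in control (adjusted p = 0.486), beside the macrophage and leukocyte sums given above. Romo1, a small mitochondrial membrane protein, was the most abundant, at 121 ± 13.03 FPKM in cHET and 134 ± 31.0 FPKM in control.

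The list named for NADPH supply, which also holds folate enzyme genes, had 5 of 14 values above 0 and a median of -0.0086. The folate enzyme genes of mitochondria Mthfd2 (6.04 ± 1.4 FPKM in cHET and 4.00 ± 0.881 FPKM in control) and Mthfd1l (2.48 ± 0.546 and 1.94 ± 0.305 FPKM) had the smallest p (limma, adjusted p = 0.463 and 0.632). Idh2, the matrix isocitrate dehydrogenase that makes NADPH, was by far the most abundant, at 632 ± 57.1 FPKM in cHET and 636 ± 94.0 FPKM in control (SD, n = 4). Of 14 haem and iron genes, 5 lay above and 9 below 0, with a median of -0.18. The iron exporter Slc40a1 stood at 1.29 ± 0.304 FPKM in cHET and 1.90 ± 0.347 FPKM in control, and the transferrin receptor Tfrc at 35.6 ± 5.62 and 28.9 ± 1.03 FPKM (limma, adjusted p = 0.511 and 0.539). The ferritin heavy chain gene Fth1, a known NRF2 target, stood at 936 ± 71.7 FPKM in cHET and 1046 ± 112 FPKM in control. The sums of 10 red cell markers ran from 1598 to 2543 FPKM in cHET and from 1025 to 8418 FPKM in control, and their part in these values was not tested.

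**Figure D5:**
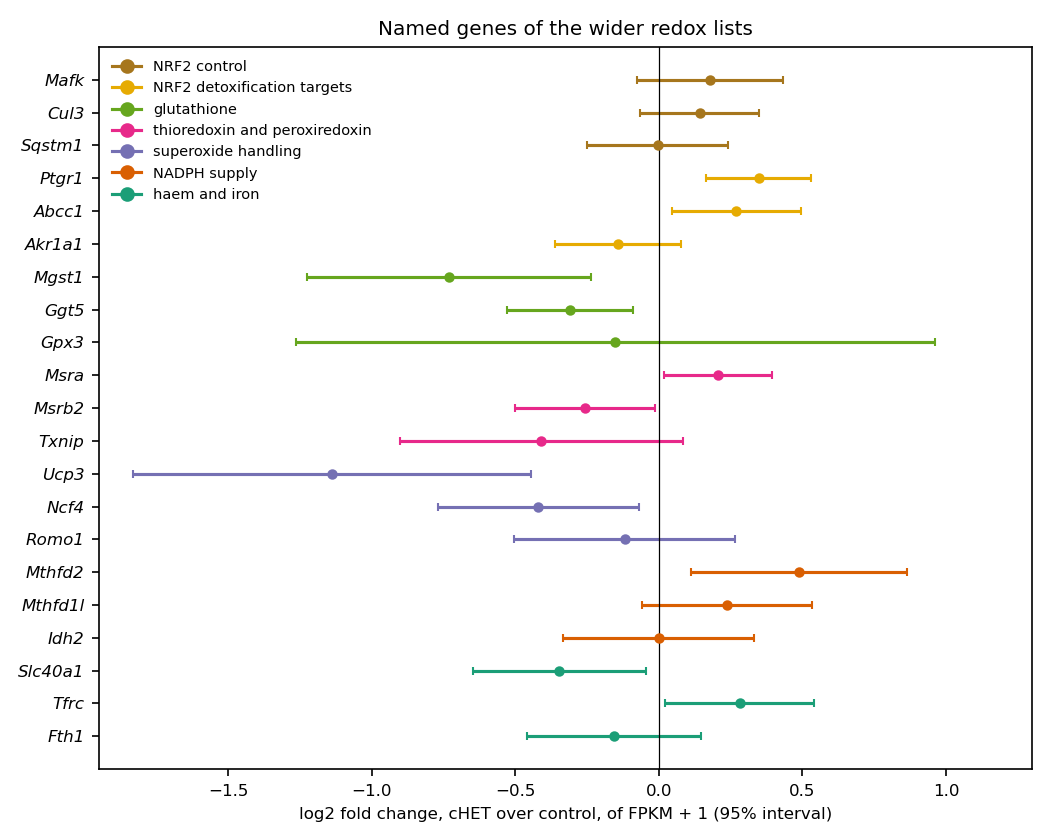
Log2 fold change of FPKM + 1, cHET over control, with its 95% interval for the named genes of 7 redox lists, coloured by list. Ucp3 (-1.14) and Mgst1 (-0.73) lie lowest, Mthfd2 (0.49) and Ptgr1 (0.35) highest, and none passed the test over all genes.

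The protein-coding genes most like Nfe2l2 over the 8 libraries, out of 11321 compared on log2(FPKM + 1), were Hif3a (Pearson r = 0.97), Kbtbd7 (0.967) and Echdc3 (0.958). Those most like Nqo1 were the muscle gene Fndc5 (0.971), BC004004 (0.969) and the leukocyte receptor gene Fcgr3 (0.969). Spearman's rho was 0.905 to 0.976 for these 6 genes. The 8 libraries fall into the cHET and control groups and differ in depth. The genes were picked as the highest of all compared, so the coefficients are a description.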

How the data were processed

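Heart RNA was selected for poly-A tails, per the labels' protocols. The table deposited by the authors gives FPKM per gene and library and the gene length used. The tools listed, per the submitters' processing notes and without roles, are DESeq2 (version 1.20.0), HISAT2 (version 2.0.5) and featureCounts (version 1.5.0-p3), and the build is mm9. However, 98.3% of the 54409 gene IDs shared with GENCODE M21 had its GRCm38 start and end, so coordinates are given on GRCm38. FPKM times length gave whole reads for 100% of values within 0.05 reads. Intervals from reads cover counting error only.

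Libraries were grouped by their titles. Genes with a mean FPKM of at least 1 were tested, 13029 in all, by limma 3.58.1 (R 4.3.3) on log2(FPKM + 1) (trend and robust, no covariate, two-sided), adjusted by Benjamini-Hochberg over all of them at 0.05. This scale understates changes of low genes. Single values per library were compared by an exact permutation test, which cannot go below p = 0.0286 here. The p-values set a difference between group means against the spread between these libraries, which limma estimates in part from all genes together.

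The members and gene lists were chosen with earlier results of these data known, and no p is given for a list. Of each list, the genes named are those with the 2 smallest p and the highest mean, and genes named outside this rule are marked. An edgeR quasi-likelihood fit was planned only for a table of raw counts and was not run.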

Additional observations from a re-analysis of the deposited data

How the results depend on the processing

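Over 24 alternatives (pseudocount, filter, scaling, variance model, library weights, voom, covariates and libraries left out), 0 of 240 member values passed the threshold, the lowest limma adjusted p being 0.241. The direction found with all libraries was kept by 227. The filters, the variance model, the replicate block and the restriction to protein-coding genes leave the members' log2 fold changes unchanged. Those values are among the 227 and could not have changed sign. The remaining 13 of 240 were of opposite sign. Under TPM scaling these were Nfe2l2 (0.036), Sod2 (0.0341) and Cat (0.0017), and without mtDNA-encoded genes in the scaling Nfe2l2 (0.00158). With library weights they were Hmox1 (-0.0715) and Sod1 (0.0107). Without both control libraries with the highest Ucp1 they were Hmox1 (-0.0864), Txnrd1 (-0.00305) and Sod1 (0.141). Without all 3 libraries with Ucp1 above 5 FPKM, chosen after seeing the data, they were Hmox1 (-0.105), Sod1 (0.14) and Sod2 (0.0281). With 1 library left out at a time, Hmox1 ran from -0.0258 (without control 1) to 0.136 (without control 3). The cause was not tested.

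The median over the 10 genes was 0.0351 under TPM scaling and 0.000539 without mtDNA-encoded genes, where the medians of all genes were 0.10 and 0.0609. Of all genes, 8 were called higher and 3 lower with library weights, 1 was called higher with the replicate block and 1 without all 3 libraries with high Ucp1. Same-numbered libraries had deviations correlated at 0.286, 0.266, 0.0521 and 0.0572, and 2 of 4 cHET libraries correlated best with their own number, so the number was not taken to pair them. Nqo1 had as few as 160 reads.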
